A study of Mus musculus with 2 samples.

Results

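Mast cells and basophils were followed through 10 genes in 2 Affymetrix arrays of cultured mouse marrow, one from Cpdm mice and one from wildtype mice. The genes are 6 granule proteases (Mcpt8, Mcpt1, Mcpt2, Mcpt4, Cma1 and Cpa3), the stem cell factor receptor gene Kit, the IgE receptor chain genes Fcer1a and Ms4a2, and the histamine synthesis gene Hdc. All probe sets that the platform annotation gives to one of these genes alone were taken, which came to 13 of 34945 single-gene probe sets and 10 of 18193 genes. Cpdm mice carry the chronic proliferative dermatitis mutation, which removes functional SHARPIN, and develop an eosinophil-rich skin inflammation. Cells of either genotype were unsorted bone marrow kept for 10 days with 50 μg/ml ascorbic acid and 10 mM β-glycerophosphate, which favour bone-forming cells, and received no other treatment. The labels do not state the strain, sex, age or number of mice. Each genotype has 1 array, so the values below carry no replicate error and no test between genotypes.

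Mast cells and basophils are rare marrow-derived cells that bind IgE through a receptor made of an α chain, a β chain and paired γ chains. When antigen clusters that receptor they release histamine, lipid mediators and granule proteases. Mast cells depend on KIT, the receptor of stem cell factor, whereas basophils depend mainly on interleukin 3. Mouse mast cells of connective tissue store the chymases MCPT4 and CMA1 with carboxypeptidase A3, those of mucosal surfaces store MCPT1 and MCPT2, and MCPT8 is the protease that marks mouse basophils.

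Values are MAS5 signals, a linear intensity in arbitrary units that the authors' software computed for each probe set. Signals under the 40th percentile of an array, 18.5 for the Cpdm array and 18.7 for the wildtype one, were treated as a floor, and a gene was called measured if it reached the floor in at least 1 array. As a guide to measurement error within the pair, the log2 ratios of 18 spike-in probe sets had an SD of 0.11. Where the mean signal was under 100, the spread between 2 probe sets for the same gene corresponded to an SD of 0.41 on the log2 scale for a single probe set (robust estimate, 2056 genes). The 18S RNA control probe sets differed between the 2 arrays, with log2 ratios between -3.75 and -2.37. Sex-linked genes differed as well. Xist read 1113 in Cpdm cells against 247 in wildtype cells, and the Y-linked gene Uty read 42.9 in Cpdm cells against 161.8 in wildtype cells. The Y-linked genes Eif2s3y and Kdm5d had log2 ratios of -1.63 and -1.62. With 1 array per genotype, a difference in the sex of the mice and one in genotype cannot be told apart. The part of the 18S RNA and of sex in the differences below was not tested.

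Of the 10 genes, Mcpt8 alone had a clearly higher signal in the Cpdm culture, Kit and Mcpt2 had lower signals, and 4 genes (Mcpt1, Mcpt4, Fcer1a and Hdc) lay under the floor in both cultures. There were 6 measured genes, of which 4 (Mcpt8, Cpa3, Kit and Ms4a2) were above the floor in both arrays and 2 (Mcpt2 and Cma1) in 1 array. Among the 6, 1 was higher and 2 were lower by at least 2-fold, and 3 were not called. Of those 3, Cma1 allows no fold, because its Cpdm signal was level with the floor and its wildtype signal under it. Its log2 ratio against the floor, -0.0007, still enters the median below. Over all 14055 measured genes, 5.84% were at least 2-fold higher and 5.98% at least 2-fold lower. For the 6966 measured genes with a mean signal under 100, the range in which all 6 measured members fall, those shares were 5.81% and 6.33%. The median log2 ratio was -0.18 over the 6 measured members and 0.03 over all measured genes, and the members' value was above 0 under 5 of 9 alternatives. With 6 genes these counts give no basis for setting the group apart from other genes.

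**Figure D1:**
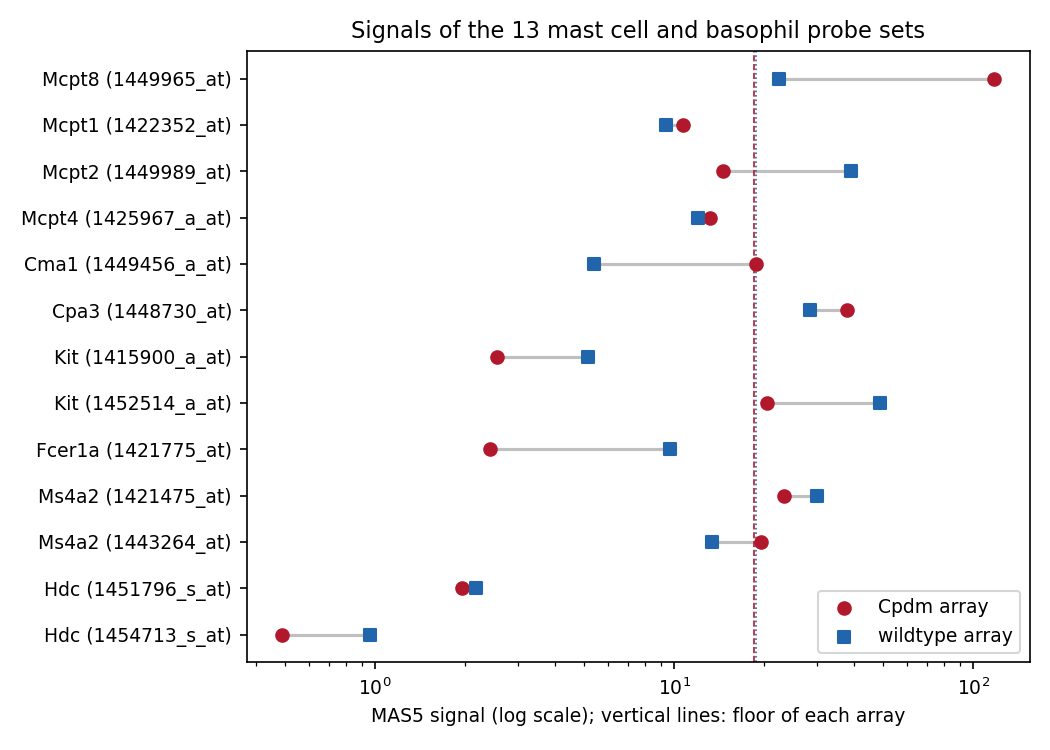
MAS5 signal (horizontal log axis) of the 13 probe sets in the Cpdm (circles) and wildtype (squares) cultures, with the floor of each array as a vertical line. Mcpt8 is far to the right of the floor in Cpdm cells only, at 117.4 against 22.4, and 6 probe sets lie under the floor in both arrays.

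Mcpt8, the basophil protease gene, read 117.4 in Cpdm cells and 22.4 in wildtype cells. The Cpdm signal was 5.24-fold higher, a log2 ratio of 2.39, which placed Mcpt8 at rank 51 of 14055 measured genes ordered from the highest ratio, with values at the floor included. Among the 6966 genes of low mean signal, 28 had a ratio at least as high, Mcpt8 included. The wildtype signal lay just over the floor, so the size of the fold depends on how low signals are treated, and it was a log2 ratio of 1.45 with the floor raised to the 60th percentile. The array holds 1 single-gene probe set for Mcpt8, and no second one can check it.

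The mast cell chymase genes gave no signal clearly above the floor in the Cpdm culture. Mcpt1, which encodes a chymase of mucosal mast cells, read 10.7 in Cpdm cells and 9.37 in wildtype cells, both under the floor. Mcpt4, the main chymase of connective tissue mast cells, read 13.2 in Cpdm cells and 12.0 in wildtype cells, again under the floor. Neither gene gives a usable ratio.

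Mcpt2, the other mucosal protease gene, read 14.6 in Cpdm cells, which is under the floor, and 38.9 in wildtype cells. Against the floor this is a signal at least 2.11-fold lower in Cpdm, a log2 ratio of at most -1.08. With a pseudocount of 16 in place of the floor the log2 ratio was -0.85, short of 2-fold. Cma1, which encodes an α-chymase with elastase-like activity in the mouse, read 18.7 in Cpdm cells, level with the floor, and 5.39 in wildtype cells, well under it. That pair of values allows no fold, because the Cpdm signal does not exceed the wildtype floor. Cpa3, the carboxypeptidase shared by mast cells and basophils, read 37.7 in Cpdm cells and 28.3 in wildtype cells. Its log2 ratio of 0.41 is about the size of the spread between probe sets at such signals.

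Kit was the other member past 2-fold on the lower side. Its main probe set read 20.4 in Cpdm cells and 48.7 in wildtype cells, a 2.39-fold lower signal and a log2 ratio of -1.26. This value ranked 534 from the bottom of 14055 measured genes, and 271 of the 6966 genes of low signal had a ratio at least as low, Kit included. The Cpdm value lay close to the floor, and the call of 2-fold rests on how low signals are treated. The log2 ratio was -0.19 with the floor at the 60th percentile and -0.83 when a pseudocount of 16 replaced the floor. The other Kit probe set read 2.54 and 5.15 in the Cpdm and wildtype arrays, under the floor in both. KIT is also carried by blood stem and progenitor cells, so this gene alone does not mark mast cells.

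The genes of the IgE receptor and of histamine synthesis gave little signal in either culture. Fcer1a encodes the α chain that holds IgE, and it read 2.43 in Cpdm cells and 9.70 in wildtype cells, under the floor in both. Ms4a2 encodes the β chain that amplifies the signal, and its main probe set read 23.3 in Cpdm cells and 29.95 in wildtype cells, a log2 ratio of -0.36. The second Ms4a2 probe set had the opposite order, with 19.4 in Cpdm cells and 13.4, under the floor, in wildtype cells, which leaves a log2 ratio of 0.05 against the floor. Neither ratio exceeds the spread between probe sets at such signals. Hdc encodes the enzyme that makes histamine from histidine, and its probe sets read 1.96 and 0.488 in Cpdm cells against 2.18 and 0.963 in wildtype cells, far under the floor. Both Hdc probe sets are of a kind that can bind several transcripts.

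**Figure D2:**
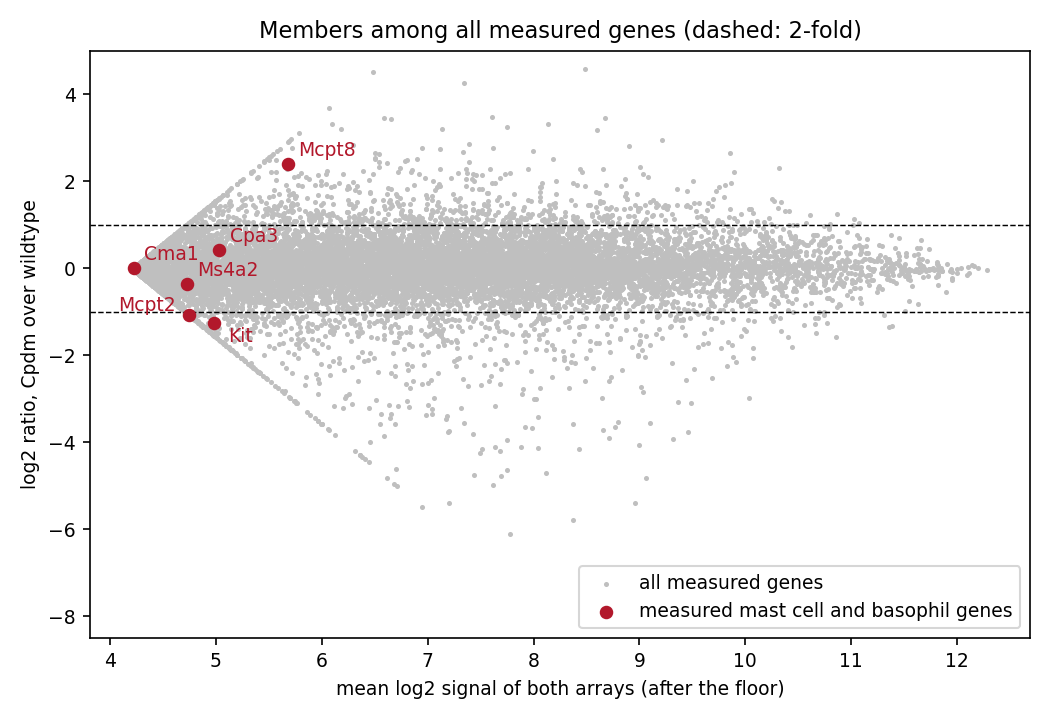
Log2 ratio of Cpdm over wildtype (vertical axis) against the mean log2 signal of both arrays after the floor (horizontal axis) for 14055 measured genes in grey and the 6 measured mast cell and basophil genes in red. Dashed lines mark 2-fold, which Mcpt8 (2.39) passes upward and Kit (-1.26) and Mcpt2 (-1.08) pass downward, while Cpa3, Ms4a2 and Cma1 lie between. The Cma1 point sets its Cpdm signal against the wildtype floor and gives no usable fold.

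For the 4 members above the floor in both arrays, the proximal promoters are shown so that the gene that was higher, Mcpt8, can be read beside Kit, Cpa3 and Ms4a2. Each run holds 250 bases before and 50 bases after the RefSeq start on build GRCm38.p6, 5′ to 3′ on the gene's own strand. Capitals mark GATAA or its reverse complement TTATC, the core bound by GATA factors such as GATA1 and GATA2. They also mark CANNTG, the general E-box form of helix-loop-helix proteins, which is not particular to any one of them.
Mcpt8, chr14:56085148-56085447 on the minus strand: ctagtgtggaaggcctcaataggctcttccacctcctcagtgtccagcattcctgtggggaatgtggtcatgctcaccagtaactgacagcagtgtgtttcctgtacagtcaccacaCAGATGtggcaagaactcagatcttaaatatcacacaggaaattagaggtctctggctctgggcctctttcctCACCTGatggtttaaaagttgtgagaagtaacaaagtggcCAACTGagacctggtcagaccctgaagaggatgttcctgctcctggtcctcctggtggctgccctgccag
Kit, chr5:75574737-75575036 on the plus strand: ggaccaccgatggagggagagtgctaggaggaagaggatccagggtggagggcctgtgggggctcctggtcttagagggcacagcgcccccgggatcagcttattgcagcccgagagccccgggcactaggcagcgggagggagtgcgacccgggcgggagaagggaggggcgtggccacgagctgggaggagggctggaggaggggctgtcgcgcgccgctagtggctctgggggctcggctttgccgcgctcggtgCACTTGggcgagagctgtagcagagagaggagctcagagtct
Cpa3, chr3:20242132-20242431 on the minus strand: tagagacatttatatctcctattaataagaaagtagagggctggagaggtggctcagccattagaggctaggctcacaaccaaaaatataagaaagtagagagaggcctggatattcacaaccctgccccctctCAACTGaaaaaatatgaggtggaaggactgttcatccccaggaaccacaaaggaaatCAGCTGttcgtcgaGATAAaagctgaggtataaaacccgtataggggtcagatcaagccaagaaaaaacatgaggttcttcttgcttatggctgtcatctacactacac
Ms4a2, chr19:11623670-11623969 on the minus strand: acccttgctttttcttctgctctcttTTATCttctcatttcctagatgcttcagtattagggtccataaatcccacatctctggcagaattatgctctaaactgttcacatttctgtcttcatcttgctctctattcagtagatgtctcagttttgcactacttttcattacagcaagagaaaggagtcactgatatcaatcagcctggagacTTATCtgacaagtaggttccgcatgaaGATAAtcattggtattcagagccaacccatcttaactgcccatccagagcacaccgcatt
The Mcpt8 run holds 3 CANNTG matches and no GATAA match, and the Kit run holds 1 CANNTG match and no GATAA match. The Cpa3 run holds 1 GATAA match, 45 bases before the start, with 2 CANNTG matches upstream of it. The Ms4a2 run holds 3 GATAA matches and no CANNTG match. RefSeq gave a promoter for 9 of the 10 members, all but Mcpt2. Of those 9, 6 held GATAA on either strand (Cma1, Cpa3, Fcer1a, Mcpt1, Mcpt4 and Ms4a2) against 25.4% of 32851 promoters of the same length, and 6 held CANNTG against 72.3%. TTCNNNGAA, the palindrome bound by STAT5, was in none of the 9 and in 8.30% of all promoters. The GATAA and CANNTG matches do not overlap in the 4 runs shown, and Mcpt1 and Mcpt4 are related sequences that count as separate members here. These are matches of letters in a short window and say nothing of binding. For Kit the first of 2 listed starts was used.

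The protease genes Cma1, Mcpt1, Mcpt2, Mcpt4 and Mcpt8 lie in one cluster with Cma2 and Mcpt9 on chromosome 14. The neutrophil protease gene Ctsg and a row of granzyme genes follow. The Mcpt1 and Mcpt4 promoters share 81.0% of aligned bases, whereas Mcpt8 shares 51.4% with Mcpt1 and 49.2% with Mcpt4. Cma1 shares 47.7% with Mcpt1, 47.9% with Mcpt4 and 46.7% with Mcpt8, so the lower identity is not particular to Mcpt8. The granzyme neighbours were looked at after their values were seen. From Cma1 to Gzmb the RefSeq annotation orders 15 protein-coding genes, 13 of them with a single-gene probe set and 7 measured. Of the 7 measured genes, 4 were at least 2-fold higher in Cpdm (Mcpt8, Gzme, Gzmd and Gzmc) and 1 was at least 2-fold lower (Mcpt2), beside 5.84% and 5.98% of all measured genes. Since the stretch was chosen with these values in view, the count describes it and sets it apart from nothing.

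Gzmd, which encodes a serine protease of the granzyme family, read 451.9 in Cpdm cells and 62.6 in wildtype cells, 7.21-fold higher. Its other probe set read 448.5 and 44.7 in the Cpdm and wildtype arrays, 10.0-fold higher. Gzme was 2.31-fold higher, at 728.3 in Cpdm cells against 315.4 in wildtype cells. Gzmc was 3.77-fold higher, at 106.4 in Cpdm cells against 28.2 in wildtype cells. Gzmd, Gzme and their neighbours have closely related sequences, and the Gzme and second Gzmd probe sets are of a type that may also bind relatives, so which gene gave these signals is uncertain. Gzmb, the granzyme of cytotoxic lymphocytes that mouse mast cells can also make, read 28.0 in Cpdm cells and 23.6 in wildtype cells. Ctsg read 6.49 and 2.32 in the Cpdm and wildtype arrays, under the floor in both.

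**Figure D3:**
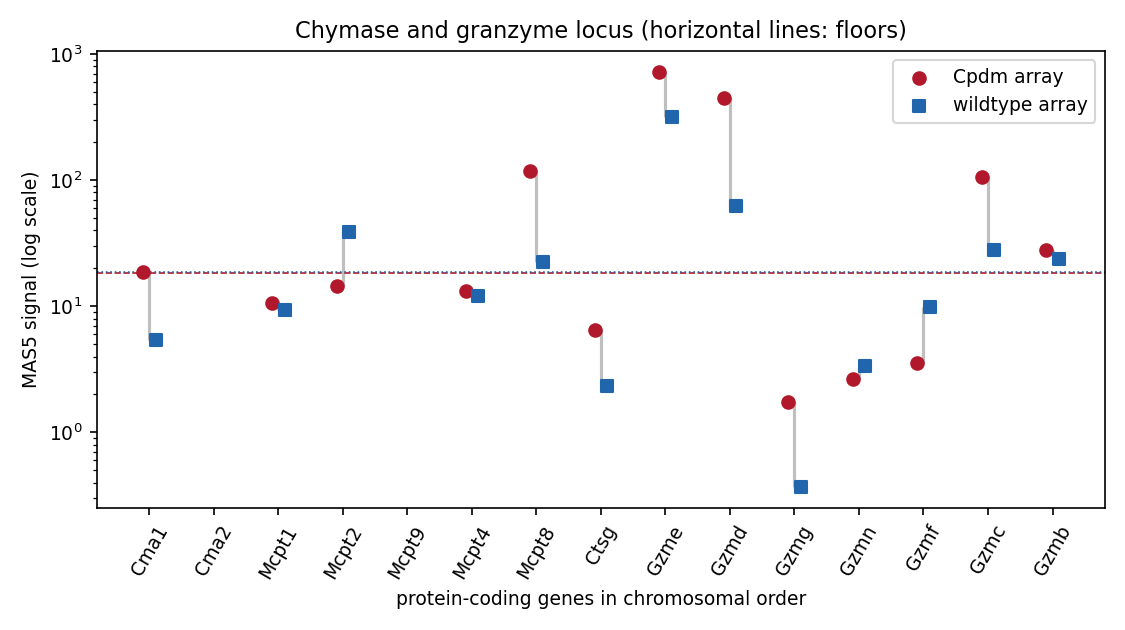
MAS5 signal (vertical log axis) in the Cpdm (circles) and wildtype (squares) cultures for the protein-coding genes from Cma1 to Gzmb in their order on chromosome 14, with floors as horizontal lines and no points for genes without a single-gene probe set. Mcpt8, Gzme, Gzmd and Gzmc sit higher in Cpdm cells, Mcpt2 sits lower, and Cma1, Mcpt1 and Mcpt4 are at or under the floor.

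A selection of further genes linked to these cells gave signals near or under the floor. Other listed genes, such as the granule proteoglycan gene Srgn and Gata2, were clearly above it in both arrays. The tryptase genes Tpsab1 and Tpsb2, which mark connective tissue mast cells, were under the floor in both arrays, at 7.38 and 18.1 in Cpdm against 14.3 and 17.4 in wildtype. Cd200r3, an activating receptor of basophils and mast cells, read 0.482 in Cpdm cells and 1.26 in wildtype cells. Il3ra, the interleukin 3 receptor chain of basophils, read 26.4 in Cpdm cells and 39.997 in wildtype cells, a log2 ratio of -0.60. Il4, a cytokine gene that basophils use, read 34.8 in Cpdm cells and 23.2 in wildtype cells, a log2 ratio of 0.59 near the floor. Neither Il3ra nor Il4 reached 2-fold, and the tryptase genes and Cd200r3, under the floor in both, allow no fold. The basophil protease gene Prss34 and the interleukin 33 receptor gene Il1rl1 had no single-gene probe set here.

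The granule list beyond the members had 4 measured genes, and 0 of them reached 2-fold in either direction, with a median log2 ratio of 0.52. Over all measured genes, 5.84% were at least 2-fold higher and 5.98% at least 2-fold lower, with a median of 0.03. A count of 0 in so short a list is near those shares. Among the surface receptors, 6 of the 12 represented genes were measured and 0 reached 2-fold, with a median of 0.22. Among transcription factors 12 of 12 were measured, with a median of 0.27. Of these, 1 was at least 2-fold higher (Spi1, the gene of the myeloid factor PU.1, at 409.6 in Cpdm and 193.7 in wildtype) and 0 were lower. Measured probe sets of Runx1 differed in direction, from 1.65-fold lower for the main one to 2.04-fold higher. Those of Zeb2 ran from 1.20-fold lower to at least 2.17-fold higher, with 1.26-fold higher for the main one. Gata2, which mast cells and basophils require, read 74.3 in Cpdm cells and 79.7 in wildtype cells, a log2 ratio of -0.10. Mitf, a mast cell and osteoclast regulator, read 405.7 in Cpdm cells and 211.1 in wildtype cells, 1.92-fold higher. Both Gata2 and Mitf had a further probe set under the floor in both arrays.

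Genes for signalling downstream of the IgE receptor differed in both directions. Of 14 genes with a probe set, 12 were above the floor in both cultures, while Lat, an adaptor gene of the receptor, and Fcer2a, the gene of the low-affinity IgE receptor, were under it in both. Of the 12 measured genes, 9 had a ratio above 0, and 3 were higher and 2 lower by the 2-fold rule. Vav1 was not called, at 1.60-fold higher by its main probe set, but was 2.88-fold higher by its other. The median log2 ratio of this list was 0.50, against 0.03 over all measured genes, of which 11.8% passed 2-fold in either direction. For the macrophage markers given further below the median was 0.45. Fcer1g, the γ chain shared by IgE and IgG receptors, read 3761 in Cpdm cells and 2736 in wildtype cells, a log2 ratio of 0.46. Syk, the kinase recruited to that chain, read 367.9 in Cpdm cells and 83.8 in wildtype cells, 4.39-fold higher. Its second probe set was 2.43-fold higher, while another read 12.6 in Cpdm cells and 23.5 in wildtype cells, the opposite order near the floor. Inpp5d, which encodes the inhibitory phosphatase SHIP1, was 3.99-fold higher and 3.17-fold higher by its other probe set. The adaptor gene Lcp2 was 2.35-fold higher and 1.37-fold higher by its other probe set.

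The 2 lower genes of that list were Fyn, a Src-family kinase gene, and Plcg1, a phospholipase gene named here after its value was seen. Fyn read 203.7 in Cpdm cells and 582.2 in wildtype cells, 2.86-fold lower, and was 2.42-fold lower by its other probe set. Plcg1 was 2.10-fold lower and 1.35-fold lower by a second probe set. Syk, Inpp5d, Lcp2 and Fcer1g are active in macrophages as well as in mast cells, so they are not specific to the cells described here.

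**Figure D4:**
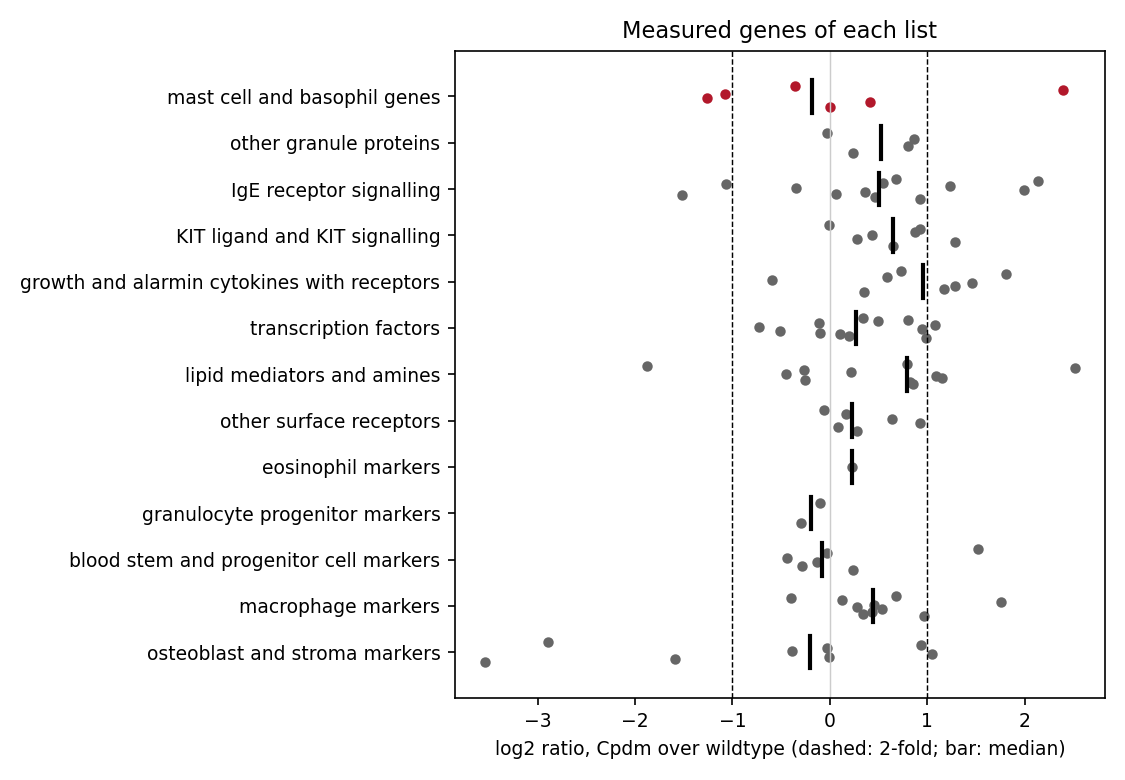
Log2 ratio of Cpdm over wildtype (horizontal axis) for each measured gene of the mast cell and basophil set (red, 6 genes) and of the companion and marker lists (grey), with black bars at the medians and dashed lines at 2-fold. The medians are -0.18 for the members, a value that changes sign with the processing, and 0.50, 0.65 and 0.95 for the IgE receptor signalling, KIT signalling and cytokine lists, with no test between lists. They are 0.79 for lipid mediators and amines, 0.52 for other granule proteins, 0.45 for macrophage markers, 0.27 for transcription factors and 0.22 for other surface receptors. Markers of blood stem and progenitor cells, granulocyte progenitors, and osteoblasts and stroma have medians of -0.08, -0.20 and -0.21.

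Signals for growth of these cells were compared next. Kitl, which encodes stem cell factor, read 161.8 in Cpdm cells and 133.1 in wildtype cells by its main probe set, and its 3 further probe sets went either way (72.6, 40.4 and 7.003 in Cpdm cells against 64.5, 55.3 and 13.7 in wildtype cells). Of 7 measured genes of the KIT list, 1 was at least 2-fold higher, the adaptor gene Dok1 at 2.43-fold, and 0 were lower, with a median log2 ratio of 0.65. In the cytokine list, 4 of 8 measured genes were at least 2-fold higher and 0 were lower, with a median of 0.95. Over all measured genes the shares were 5.84% higher and 5.98% lower and the median was 0.03. The 4 genes included Csf2rb, the β chain shared by the receptors for interleukin 3, interleukin 5 and GM-CSF, at 2.26-fold (1.98-fold by its other probe set), and its mouse-specific relative Csf2rb2 at 2.44-fold. The other genes past 2-fold were Il4ra and the alarmin gene Il33. Il4ra was 3.51-fold higher by its main probe set and 4.36-fold and 1.35-fold higher by the others. Il33 read 51.3 in Cpdm cells and 2.24 in wildtype cells, the latter under the floor, which makes it at least 2.74-fold higher. Il3 itself read 10.6 in Cpdm cells and 1.95 in wildtype cells, under the floor in both. The pair Csf2rb and Csf2rb2 is nearly identical in sequence, which leaves their separate values uncertain.

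Among the lipid mediator and amine genes, Ltc4s, Hpgds and Hnmt passed 2-fold upward in Cpdm and Ptgs2 passed it downward. Ltc4s, the leukotriene C4 synthase gene, read 695.2 in Cpdm cells and 121.2 in wildtype cells, 5.74-fold higher. Hpgds, the prostaglandin D2 synthase of mast cells and some macrophages, was 2.13-fold higher, at 213.8 in Cpdm cells against 100.5 in wildtype cells. Hnmt, the enzyme that breaks histamine down, was 2.22-fold higher, at 193.9 in Cpdm cells against 87.4 in wildtype cells. Ptgs2, the inducible cyclooxygenase, was 3.67-fold lower and 3.97-fold lower by its other probe set. Alox5 and Alox5ap, which act before Ltc4s in leukotriene synthesis, differed by 1.81-fold and 1.77-fold, short of the rule. The 2-fold rule placed 3 of 11 measured genes of this list higher, 1 lower and the other 7 in between, and the median of their log2 ratios was 0.79, beside 5.84% higher, 5.98% lower and a median of 0.03 over all measured genes. A gene for removing histamine was well above the floor in both cultures, whereas the gene for making it was under the floor in both.

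Markers of other cells in the cultures are given beside these values. Over all measured genes, the shares to set beside their counts were 5.84% at least 2-fold higher and 5.98% at least 2-fold lower. Macrophage markers were measured for 10 of 10 genes, 1 of them at least 2-fold higher (the Fc receptor gene Fcgr1, 3.39-fold) and 0 lower, with a summed signal of 23394 in Cpdm cells and 18032 in wildtype cells. Of the 10 ratios 9 were above 0, with a median log2 ratio of 0.45. Csf1r was not called, at 1.37-fold higher by its main probe set, but was 2.38-fold and 2.18-fold higher by its others. Markers of blood stem and progenitor cells were measured for 6 of 8 genes, with Myb and Erg under the floor in both. Their summed signal over all 8 was 342.7 in Cpdm and 325.0 in wildtype, with Procr 2.88-fold higher. Of the 6 measured ratios, 2 were above 0, Procr among them, and 4 were below 0, with a median log2 ratio of -0.08. Granulocyte progenitor markers were measured for 2 of 6 genes, with a sum over all 6 of 118.5 in Cpdm and 124.3 in wildtype, and Elane, Prtn3, Ctsg and Gfi1 under the floor in both. Eosinophil markers were measured for 1 of 6 genes, Prg2, at 21.9 in Cpdm and 13.3 in wildtype. The sum over all 6, mostly from signals under the floor, was 56.0 in Cpdm and 37.6 in wildtype. Osteoblast and stroma markers were measured for 8 of 8 genes, 3 at least 2-fold lower and 1 at least 2-fold higher, with a sum of 10850 in Cpdm and 14971 in wildtype. The 3 lower genes were Alpl (11.7-fold), Sp7 (7.46-fold) and Col1a1 (3.01-fold), and Cxcl12 was 2.07-fold higher. Ibsp and Col1a2 were not called by their main probe sets. Other probe sets read 6.20-fold lower for Ibsp, and 7.15-fold and 2.04-fold lower for Col1a2. The median log2 ratio of the 8 genes was -0.21, with 2 ratios above 0 and 6 below 0. The part of macrophage and stromal content in the companion lists was not tested. In a mixed culture, fewer cells of a type and less RNA per cell cannot be told apart, and this holds for each gene above.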

How the data were processed

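Total RNA (5 μg per culture) was labelled as biotin cRNA by the Affymetrix protocol, per the labels. The table that the authors deposited gives a linear MAS5 intensity for each of 45101 probe sets. The submitters' processing notes name GCOS 1.4 and MAS5. The mean after trimming 2% at each end was 100 in both columns. Detection calls were not used here, and no source states the background settings. The number of arrays limits the precision.

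The signals were used without further scaling. Of 45037 non-control probe sets, 34945 carried 1 gene in the platform annotation, 932 carried several and 9160 were unlisted. Entrez identifiers matched all 10 members to current mouse gene records with no change of symbol. The probe set with the greatest average log2 value after the floor stood for its gene, and a fold against an array at the floor is written as "at least". Differences are log2 ratios of Cpdm over wildtype with a size rule of 2-fold, without a test. They were computed in pandas 2.3.3 under Python 3.11.15 (loess from statsmodels 0.14.6). The code was run on simulated data in which only genes well above the floor in both arrays were changed. That run does not cover signals near the floor, where most member values lie. The members and lists were chosen with earlier results of these data known. Named were all members, up to 4 genes past 2-fold in each list, 10 lineage genes (Fcer1g, Kitl, Gata2, Mitf, Il3ra, Il1rl1, Tpsab1, Tpsb2, Prss34 and Cd200r3), and a few chosen after their values were seen: Plcg1, Il3, Il4, the granzymes, Ctsg, and markers under the floor. Alox5, Alox5ap, Prg2, Srgn, Lat and Fcer2a were also named outside these rules. So were Csf1r, Ibsp, Col1a2, Runx1, Zeb2 and Vav1, for their other probe sets. Alternatives changed the floor, pseudocount, probe set rule and scaling.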

Additional observations from a re-analysis of the deposited data

How the results depend on the processing

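Each result was recomputed under 9 alternatives, with 0 values of opposite sign for the genes past 2-fold. Mcpt8 was at least 2-fold higher in 9 of 9, with log2 ratios between 1.45 and 2.40, the lowest with the floor at the 60th percentile, where 2 members were measured and Kit had -0.19. Kit was at least 2-fold lower in 5 of the 7 alternatives that measured it and Mcpt2 in 7 of 8. The count of members at least 2-fold higher was 2 with the floor at the 20th percentile and 2 without a floor, where Cma1 joined at log2 ratios of 1.60 and 1.80. The count of members at least 2-fold lower was 0 with the floor at the 60th percentile, 0 with a pseudocount of 16 in place of a floor, where Kit had -0.83 and Mcpt2 -0.85, 1 with the mean over probe sets and 1 without probe sets of shared transcripts. The last 2 alternatives left Kit unmeasured. Without a floor that count was 3, with Fcer1a at -1.999. The median log2 ratio of measured members ranged from -0.21 to 0.63, the highest with the floor at the 60th percentile, and was above 0 in 5 of 9 alternatives. Over all genes, 1265 were higher and 1397 lower with the floor at the 20th percentile, and 1741 were higher and 1885 lower without a floor. The 3 other scalings moved no member past or back over 2-fold. No paired analysis was possible because each genotype has 1 array and no test was run. All member signals but the Cpdm value of Mcpt8 lay near or under the floor, which limits their ratios.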
